A study of Rattus norvegicus with 8 samples.

Results

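The miRNAs described here are those best known from white blood cells: the mature products of the hairpins miR-142, miR-150, miR-223, miR-342, miR-146a and miR-146b. They were chosen by name, as rno-miR-142-3p, rno-miR-142-5p, rno-miR-150, rno-miR-150*, rno-miR-223, rno-miR-146a, rno-miR-146b, rno-miR-342-3p and rno-miR-342-5p with any further arm of the same hairpins, and are given below without the species prefix. Of 677 rat miRNAs on the array, 12 belonged to these hairpins, and 9 of the 12 were among the 311 miRNAs of the authors' value table. miR-155, which belongs to the same group, was not analysed here. Islet RNA of Sprague Dawley rats had been hybridised to Agilent miRNA arrays in 1 colour, 4 arrays from males 3 months old (adult) and 4 arrays from rats 10 days old (P10) whose sex the labels do not give. The labels call all animals controls and number the arrays as biological replicates. How many rats stand behind an array they do not say. If arrays shared animals, the p-values would measure a spread that is in part technical. The title of the series gives beta-cell maturation as the question.

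Islets are clusters of endocrine cells, but an isolated islet also holds blood vessels, fibroblasts and resident or passing immune cells, and isolation can carry over exocrine and lymphoid tissue. A miRNA directs the silencing complex to messenger RNAs that match its seed, bases 2 to 8 from the 5′ end. In mouse and human, miR-142 is made in nearly all blood lineages and in few other cells, and miR-223 in granulocytes and other myeloid cells. miR-150 marks mature lymphocytes and is known to repress the transcription factor Myb. miR-342 is found in lymphoid and myeloid cells, and miR-146a, which NF-kB induces and which represses the signalling adaptors Traf6 and Irak1, is also made outside blood. These arrays measured RNA of whole islets, so that fewer leukocytes and less of a miRNA per leukocyte cannot be told apart.

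The mature sequences below, from RefSeq (build GRCr8), show how the measured members relate, with the seed in capitals. They were found for 7 of the 8 names looked up. The array names miR-146a, miR-146b and miR-223 stand for the arms that RefSeq calls miR-146a-5p, miR-146b-5p and miR-223-3p.
miR-142-3p: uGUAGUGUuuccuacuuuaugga
miR-142-5p: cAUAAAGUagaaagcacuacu
miR-223: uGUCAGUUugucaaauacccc
miR-342-3p: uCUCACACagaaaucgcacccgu
miR-342-5p: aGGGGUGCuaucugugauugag
miR-146a: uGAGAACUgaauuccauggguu
miR-146b: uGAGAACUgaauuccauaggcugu
Among 693 rat mature miRNAs of that table, miR-146a and miR-146b shared their seed with each other and with no other. Each of the other 5 sequences was the only one with its seed. Counted from 1 at the 5′ end, miR-146b differed from miR-146a by G18A and U21C and carried 2 more bases at its 3′ end, so that array probes for the 2 may share some signal.

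Both arms of miR-142 come from 1 hairpin, chr10:73055104-73055190 on the plus strand of GRCr8, which overlaps the protein-coding gene Tspoap1. It is printed because its arms gave the largest spread among the members, with the arms in capitals.
Mir142 hairpin: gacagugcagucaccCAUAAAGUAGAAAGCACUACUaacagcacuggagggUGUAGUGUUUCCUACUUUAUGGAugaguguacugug
The miR-342 hairpin, chr6:133329655-133329753 on the plus strand, overlaps the protein-coding gene Evl and a long noncoding RNA. It is printed because its arms were called differently between the ages.
Mir342 hairpin: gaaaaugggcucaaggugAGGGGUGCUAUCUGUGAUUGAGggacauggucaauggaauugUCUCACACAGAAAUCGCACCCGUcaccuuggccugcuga
In the annotation of GRCr8 the hairpins of miR-223 and miR-146a overlap long noncoding RNAs. That of miR-146b overlaps the protein-coding gene C1h10orf95, and no other gene is listed over that of miR-150.

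Of the 12 members, 6 were well above background on all 8 arrays: miR-142-3p, miR-223, miR-150, miR-342-3p, miR-146a and miR-146b. Another 3, miR-142-5p, miR-150* and miR-342-5p, were so on some arrays (the asterisk is the array's sign for a minor arm). The minor arms miR-146a*, miR-146b* and miR-223* were not well above background on any array, so that they were not tested. Values are log2 signals of a miRNA's brightest probe, in which 0 is the 75th percentile of an array's bright probes and -5.51 a common floor. The 75th percentile itself was 1284 to 1677 on adult arrays and 388 to 1690 on P10 arrays, with P10 replicates 1 and 2 the dimmest. All 8 arrays lay on 1 slide, adult in 1 column and P10 in the other, so that age and position on the slide cannot be told apart. The islet markers miR-375, miR-7a, miR-7b, miR-204 and miR-153 were well above background on all 8 arrays, and miR-184 on 1. Their sum of linear scaled signals was 44.1 to 50.2 on adult arrays and 11.9, 18.2, 25.6 and 26.0 on P10 replicates 1 to 4. Correlations between arrays over the tested miRNAs were 0.988 to 0.997 within adult and 0.859 to 0.974 within P10. Between the ages they were 0.764 to 0.925. P10 replicate 4 had 0.908 to 0.925 with adult arrays and 0.859, 0.899 and 0.965 with P10 replicates 1 to 3. It was thus closer to every adult array than to P10 replicates 1 and 2.

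**Figure D1:**
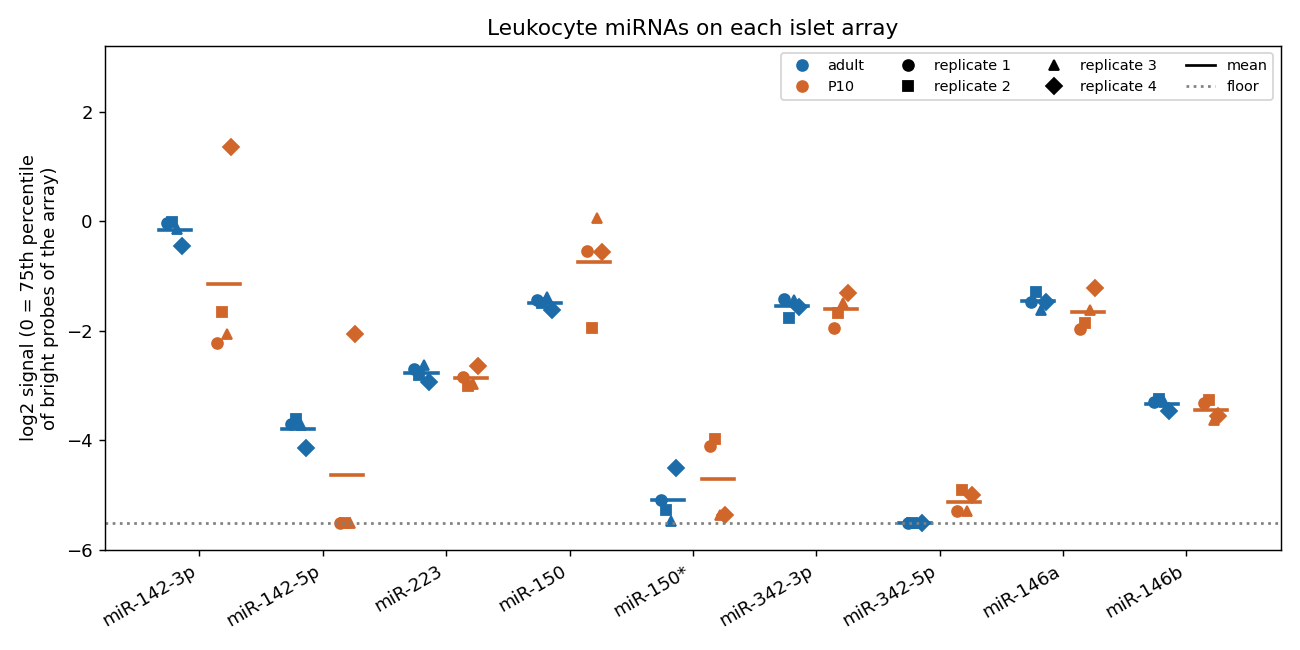
Log2 signal of the 9 tested leukocyte miRNAs on each array, adult (blue) left of P10 (orange), with replicate numbers as symbols, the mean as a bar and the floor as a dotted line. P10 replicate 4 stands far above the other P10 arrays for both miR-142 arms, while miR-223, miR-342-3p and miR-146b lie close together on all 8 arrays.

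The miR-142 arms, the broadest blood cell marks in the group, varied less among adult arrays than among P10 arrays, with an SD of 0.20 in adult and 1.69 in P10 for miR-142-3p and of 0.23 in adult and 1.72 in P10 for miR-142-5p. miR-142-3p lay at -0.03, -0.01, -0.15 and -0.45 on adult replicates 1 to 4, and at -2.22, -1.67, -2.07 and 1.36 on P10 replicates 1 to 4. P10 replicates 1 to 3 were thus below every adult array and P10 replicate 4 above every adult array, so that the ages overlapped. Before scaling, its signal was 1329, 1391, 1516 and 939 on the adult arrays and 83.2, 138.6, 235.9 and 4339 on the P10 arrays. On P10 replicate 4 the 9 features used for this probe ran from 4169 to 4456, a coefficient of variation of 1.97%. The second probe of miR-142-3p gave the same order, at -1.14, -1.08, -1.18 and -1.495 on adult arrays and -3.33, -2.58, -3.15 and 0.38 on P10 arrays.

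miR-142-5p, the other arm, lay at -3.71, -3.61, -3.73 and -4.14 on adult replicates 1 to 4 and at the floor on P10 replicates 1 to 3. On P10 replicate 4 it lay at -2.07, the highest value of the 8 arrays. It was well above background on all 4 adult arrays and on 1 of 4 P10 arrays. Across the 8 arrays the arms had a Pearson correlation of 0.990, given as a description, to which the floor and the single high array contribute. The gap between the arms on the log2 scale was 3.58 to 3.69 on adult arrays and 3.43 on P10 replicate 4. On P10 replicates 1 to 3 miR-142-5p was at the floor, so that the gap there was not measured.

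Across the ages neither arm passed. The difference of miR-142-3p was 0.99 ± 0.75 (adult minus P10, log2 ± SE, n = 4 per age), with a 95% interval of -0.74 to 2.72 and a limma adjusted p of 0.323. That of miR-142-5p was 0.85 ± 0.76, with an interval of -0.91 to 2.61 and a limma adjusted p of 0.408. A single array decided both values. Without P10 replicate 4 the difference of miR-142-3p was 1.83 (limma adjusted p = 0.000296), a 3.55-fold higher level in adult than on P10 replicates 1 to 3. Without it miR-142-5p was called as well (limma adjusted p = 0.000144). P10 replicates 1 to 3 were all at the floor for this arm, so that this p-value rests on no measured P10 spread. The level of miR-142-5p was at least 1.91-fold higher in adult, a bound set by the dimmest signal well above background on the P10 arrays. P10 replicate 4 in turn exceeded the adult mean 2.87-fold for miR-142-3p and 3.31-fold for miR-142-5p, values that come from that single array and carry no test. With P10 replicates 3 and 4 as the only P10 arrays, miR-142-3p differed by 0.19 and miR-142-5p by -0.01. miR-142-3p was called in 2 of 26 alternatives and miR-142-5p in 2 of 25. For both arms these were array weights and the fit without P10 replicate 4.

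**Figure D2:**
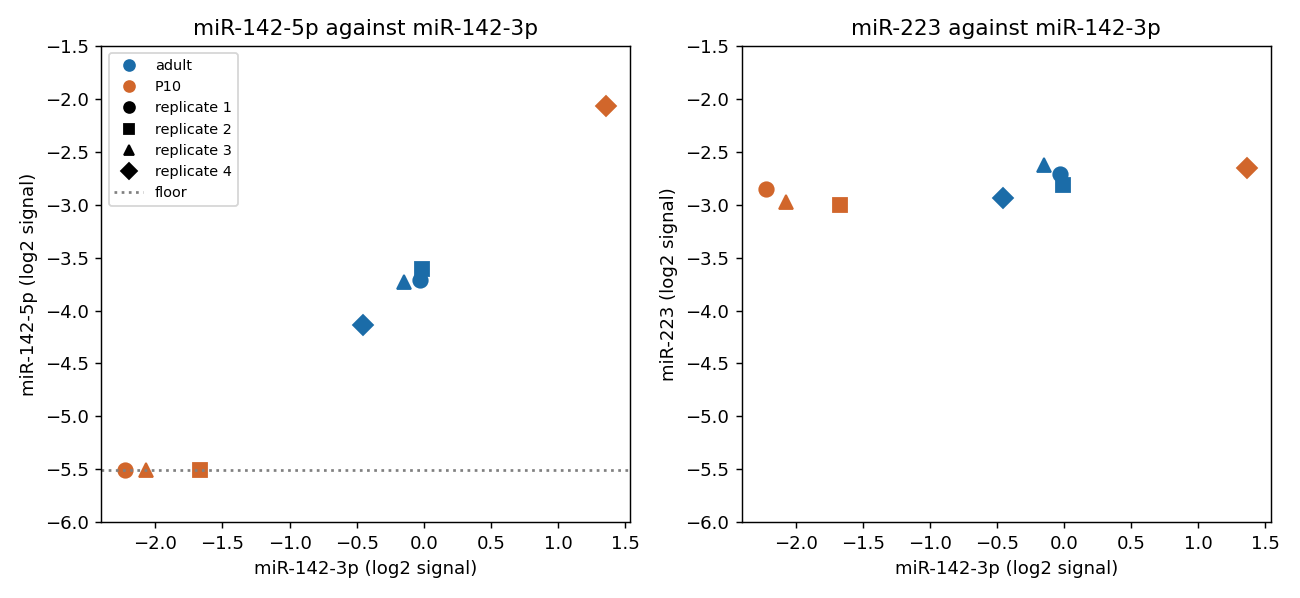
Log2 signal of miR-142-5p (left) and of miR-223 (right) against miR-142-3p on the 8 arrays, adult in blue and P10 in orange. The arms of miR-142 move together where miR-142-5p is above the floor, while miR-223 stays between -3.004 and -2.62 over the whole range of miR-142-3p.

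P10 replicate 4 exceeded the other P10 arrays in miR-142 more than in any other tested miRNA. Against the mean of P10 replicates 1 to 3, its level of miR-142-3p was 10.2-fold higher (log2 difference 3.35), and that of miR-142-5p at least 6.33-fold higher. Ranked by this gap among the 238 tested miRNAs, with values at the floor taken at the floor, miR-142-5p was number 1 and miR-142-3p number 2. miR-133b, known from skeletal muscle, followed at 1.94, and acinar miR-216a was last at -3.41. The other leukocyte miRNAs were not displaced to that extent on the same array. The gap was 0.59 for miR-146a, 0.39 for miR-342-3p, 0.29 for miR-223, 0.26 for miR-150, 0.18 for miR-342-5p, -0.16 for miR-146b and -0.89 for miR-150*. These gaps are a description of 1 array and were not tested.

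**Figure D3:**
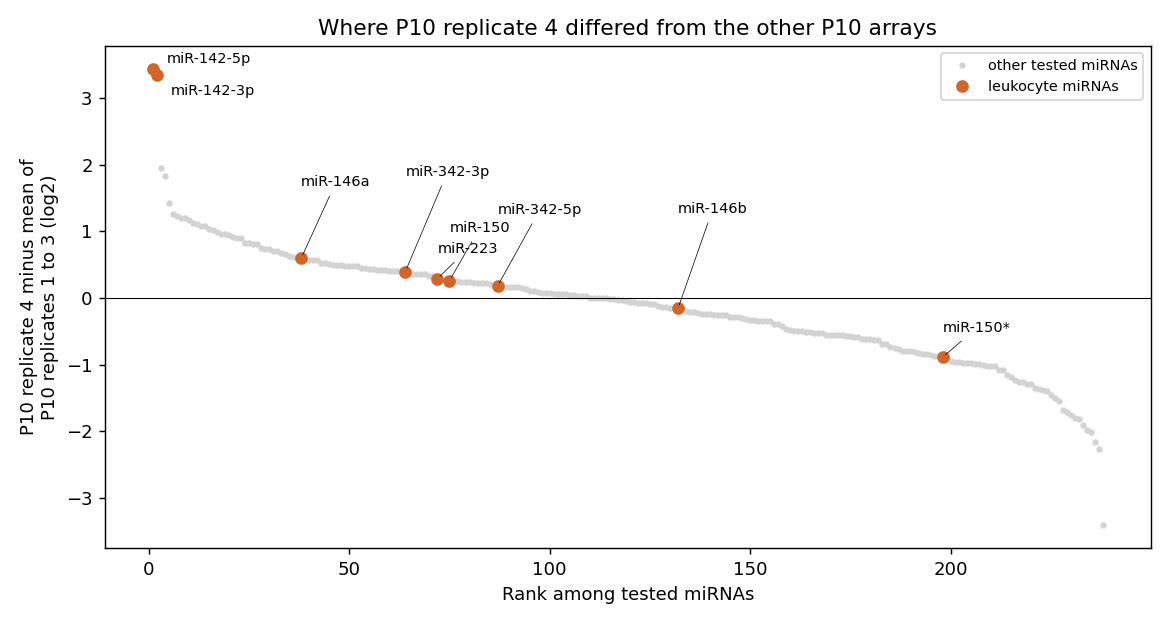
Log2 signal of P10 replicate 4 minus the mean of P10 replicates 1 to 3 for each of 238 tested miRNAs, ranked, with the leukocyte miRNAs in orange. The arms of miR-142 hold the first places at 3.44 and 3.35, and the other 7 leukocyte miRNAs lie between 0.59 and -0.89.

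Marker lists of other cell types were set beside that array, as sums of linear scaled signals over a list, in which 1 is the 75th percentile of bright probes. Their calls between the ages stand beside 27.3% higher and 20.2% lower in adult over all tested miRNAs. The endothelial pair miR-126 and miR-126*, of which 0 of 2 were called between the ages, summed to 2.92 to 3.32 on adult arrays and to 2.34, 2.83, 4.43 and 4.71 on P10 replicates 1 to 4. Their sum was thus higher on P10 replicates 3 and 4 than on the adult arrays. The erythroid miRNAs miR-451 and miR-144, the 2 of 3 listed with a probe here, both rose in adult, though miR-144 lost its call in 16 of 26 alternatives and miR-451 in 1, with no filter. They summed to 0.250 to 0.652 on adult arrays and to 0.147, 0.196, 0.253 and 0.153 on P10 replicates 1 to 4. The acinar miR-216a and miR-217, 2 of 3 listed, gave 0 calls. Their sum was 0.195 to 0.397 on adult arrays and 0.783, 0.632, 0.059 and 0.044 on P10 replicates 1 to 4. Both were at the floor on P10 replicate 4. The other listed name, miR-216b, is on the array as miR-216b-5p and was left out of this sum. Its adult minus P10 difference was -0.47 (limma adjusted p = 0.657), against 0.61 for miR-216a and 0.51 for miR-217. Of 5 mesenchymal miRNAs 1 rose and 3 fell, and 0 of these 4 calls were kept without scaling. The 5 summed to 5.10 to 7.11 on adult arrays and to 4.27, 4.78, 6.11 and 7.38 on P10 replicates 1 to 4. Of these lists the mesenchymal and endothelial sums had their highest P10 value on replicate 4, as did the islet markers above (26.0). The part of any of them in the miR-142 level of that array was not tested. Within the mesenchymal list miR-143 (2.46) and miR-145 (-3.90) were highest among P10 arrays on replicate 4, while miR-199a-5p (-0.95), miR-199a-3p (0.05) and miR-214 (-1.94) were lowest there.

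The leukocyte list itself, 9 of 10 listed names, summed to 2.10 to 2.47 on adult arrays and to 1.76, 1.51, 2.24 and 4.62 on P10 replicates 1 to 4. Leaving out both miR-142 arms after these values had been seen, the remaining 7 summed to 1.31 to 1.41 on adult arrays and to 1.52, 1.17, 1.98 and 1.81 on P10 replicates 1 to 4. This sum was highest on P10 replicate 3, the array with the most miR-150. P10 replicate 4 was the highest P10 array for miR-146a, miR-342-3p and miR-223, and not for the other 4.

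miR-223, the myeloid member, was nearly level across the arrays. It lay at -2.71, -2.81, -2.62 and -2.94 on adult replicates 1 to 4 and at -2.85, -3.004, -2.98 and -2.65 on P10 replicates 1 to 4. The ages overlapped, and the difference was 0.10 ± 0.12 (log2 ± SE, n = 4 per age), with a 95% interval of -0.18 to 0.38 and a limma adjusted p of 0.541. Its SD among P10 arrays was 0.16, against a median of 0.38 over all tested miRNAs. The second probe differed by -0.17, and none of 26 alternative settings called miR-223. From the array with the least miR-142-3p to that with the most, the gap between miR-142-3p and miR-223 ranged from 0.63 on P10 replicate 1 to 4.01 on P10 replicate 4. On adult arrays it stayed between 2.48 and 2.80.

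miR-150, the mark of mature lymphocytes, was even in adult and uneven in P10, in an order unlike that of miR-142. It lay at -1.43, -1.498, -1.39 and -1.63 on adult replicates 1 to 4 and at -0.55, -1.95, 0.05 and -0.56 on P10 replicates 1 to 4. P10 replicates 1, 3 and 4 were above every adult array and P10 replicate 2 below every adult array. The difference was -0.74 ± 0.38 (log2 ± SE, n = 4 per age), with a 95% interval of -1.62 to 0.15 and a limma adjusted p of 0.154. Without P10 replicate 2, the P10 array below every adult array, it was called lower in adult (-1.14, limma adjusted p = 0.00241). Of 26 alternatives 2 called it, and both left that array out. The difference lay at 0.22 if left unscaled and at 0.29 on spike-ins. The second probe of miR-150, at lower signal, was also highest on P10 replicate 3 and lowest on P10 replicate 2, with a difference of -1.01. The SD of miR-150 was 0.10 among adult arrays and 0.85 among P10 arrays.

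The 2 tested miRNAs outside the group whose values followed miR-150 most closely were miR-192 and miR-194, with Pearson correlations of 0.869 and 0.854 over the 8 arrays. Both are known from gut epithelium and were on that marker list. Its 3 members, miR-192, miR-194 and miR-215, all fell in adult, beside 20.2% of all tested miRNAs, although on spike-ins only miR-215 kept its call. They summed to 0.280 to 0.508 on adult arrays and to 7.27, 1.11, 13.5 and 2.37 on P10 replicates 1 to 4, and miR-215 was at the floor on all adult arrays. The P10 array with the highest sum, replicate 3, also had the most miR-150, and the one with the lowest sum, replicate 2, had the least. P10 replicates 1 and 4, with sums of 7.27 and 2.37, had nearly equal miR-150 (-0.55 and -0.56). Where these 3 miRNAs came from was not measured, and a link to the level of miR-150 was not tested.

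miR-150*, the minor arm, was well above background on 3 arrays of each age and lay near the floor. It had -5.09, -5.27, -5.48 and -4.51 on adult replicates 1 to 4 and -4.11, -3.97, -5.37 and -5.37 on P10 replicates 1 to 4. Among P10 arrays the scaled value was thus higher on the dim replicates 1 and 2. Unscaled signals were 39.7, 36.2, 37.5 and 56.3 on adult replicates 1 to 4 and 22.5, 28.1, 23.9 and 40.7 on P10 replicates 1 to 4, highest on replicate 4 among P10 arrays. Adult replicate 2 and P10 replicate 1 were those not well above background. The difference was -0.38 ± 0.39 (limma adjusted p = 0.475, n = 4 per age). Over alternatives it ran from -1.08 to 2.46, and was called in 1 of 25, lower in adult with array weights.

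The arms of miR-342 differed in brightness and in their calls. miR-342-3p lay at -1.42, -1.76, -1.43 and -1.56 on adult replicates 1 to 4 and at -1.95, -1.68, -1.49 and -1.31 on P10 replicates 1 to 4. The ages overlapped, with a difference of 0.06 ± 0.16 (log2 ± SE, n = 4 per age), a 95% interval of -0.31 to 0.43 and a limma adjusted p of 0.777. Its other probe differed by -0.06, and none of 26 alternatives called it.

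miR-342-5p was the single member called, lower in adult, and its values were at the limit of measurement. It was at the floor on all 4 adult arrays and at -5.30, -4.91, -5.30 and -4.995 on P10 replicates 1 to 4, a difference of -0.38 ± 0.12 with a limma adjusted p of 0.0354 (n = 4 per age). With the adult values all at the floor, this SE and p-value rest on no measured adult spread. Without the floor the adult arrays were at -5.59, -6.16, -5.59 and -5.59. It was well above background on 3 adult arrays and 2 P10 arrays, through 1 of its 4 probes. Unscaled signals were 28.1, 19.6, 34.7 and 26.7 on adult replicates 1 to 4 and 9.87, 14.6, 25.0 and 53.0 on P10 replicates 1 to 4, so that the ages overlapped before scaling. With the floor at the 5th percentile the difference was -0.19 (limma adjusted p = 0.220), and the call was kept in 6 of 25 alternatives. It was lost without P10 replicate 2 (-0.31) or any 1 adult array, with limma adjusted p from 0.0726 to 0.0890.

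miR-146a and miR-146b, which share their seed, were not called between the ages. miR-146a lay at -1.47, -1.29, -1.62 and -1.47 on adult replicates 1 to 4 and at -1.96, -1.86, -1.63 and -1.22 on P10 replicates 1 to 4. As for miR-142-3p, P10 replicates 1 to 3 were below every adult array and P10 replicate 4 above every adult array. P10 replicate 3 was so by little (-1.627, against -1.623 on adult replicate 3). The difference was 0.21 ± 0.18 (log2 ± SE, n = 4 per age), with a 95% interval of -0.20 to 0.61 and a limma adjusted p of 0.384. It passed as higher in adult without P10 replicate 4, the P10 array with the highest value, at 0.35 (limma adjusted p = 0.0432).

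miR-146b lay at -3.31, -3.25, -3.30 and -3.47 on adult replicates 1 to 4 and at -3.32, -3.26, -3.63 and -3.56 on P10 replicates 1 to 4. Its difference was 0.11 ± 0.12, with a 95% interval of -0.17 to 0.39 and a limma adjusted p of 0.504 (n = 4 per age). It was called higher in adult in 3 alternatives, at 0.58 with the percentile over all probes, 0.37 with quantile normalization and 0.49 with cyclic loess on bright probes. Its dimmer probe differed by -0.11. In spite of the near-identical sequences the pair did not run in parallel. miR-146a exceeded miR-146b by 1.68 to 2.00 on adult arrays and by 1.35, 1.40, 2.00 and 2.33 on P10 replicates 1 to 4, a comparison of probes that shows only unequal change.

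The authors' value table holds values of the same arrays and is no independent measurement. In it miR-142-3p stood at 10.0, 10.0, 9.94 and 9.57 (log2) on adult replicates 1 to 4. On P10 replicates 1 to 4 it stood at 7.68, 8.30, 8.09 and 11.7. miR-150 stood at 8.26, 8.19, 8.26 and 8.10 on adult arrays and at 9.07, 7.50, 9.63 and 8.99 on P10 arrays. The order of P10 against adult arrays was thus the same as above for both miRNAs. miR-223 ran from 7.35 to 7.62 in adult and from 7.11 to 7.50 in P10, and 0 of the 9 members passed in a limma fit to that table (0 at an unadjusted p under 0.05).

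As a group, 1 of 9 tested leukocyte miRNAs differed between the ages, 0 higher and 1 lower in adult (limma, Benjamini-Hochberg adjusted p under 0.05 over 238 miRNAs; 1 of the 9 at an unadjusted p under 0.05). Over all tested miRNAs 47.5% were called, 27.3% higher and 20.2% lower. Adult and P10 arrays were fully separate for 1 of the 9, miR-342-5p, and for 45.8% of all tested. The median difference of the 9 was 0.10 and that of all tested -0.01, and the median absolute difference was 0.38 in the 9 and 0.52 in all. The median SD among adult arrays was 0.14 in the 9 and 0.11 in all, and among P10 arrays 0.33 in the 9 and 0.38 in all. Within that, miR-142-5p and miR-142-3p ranked 35 and 42 of 238 by adult SD and 5 and 7 by P10 SD, while miR-146b and miR-223 ranked 190 and 196 by P10 SD.

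The counts over all miRNAs depended on scaling, as did the sign of small differences. Calls higher and lower in adult numbered 65 and 48 here, 90 and 34 on the percentile of all probes, 58 and 17 if left unscaled, 53 and 9 on spike-ins, 33 and 47 after normexp, and 12 and 22 after cyclic loess on all probes. The median difference of all tested miRNAs moved to 0.45, 0.94, 1.01, -0.28 and 0.15 in those settings, and to 0.11 after quantile normalization and 0.22 after cyclic loess on bright probes. The median of the 9 leukocyte miRNAs moved with it, to 0.57, 1.06, 1.13, -0.30 and 0.23, and to 0.30 and 0.37, so that the differences above are to be read against that of the other miRNAs.

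**Figure D4:**
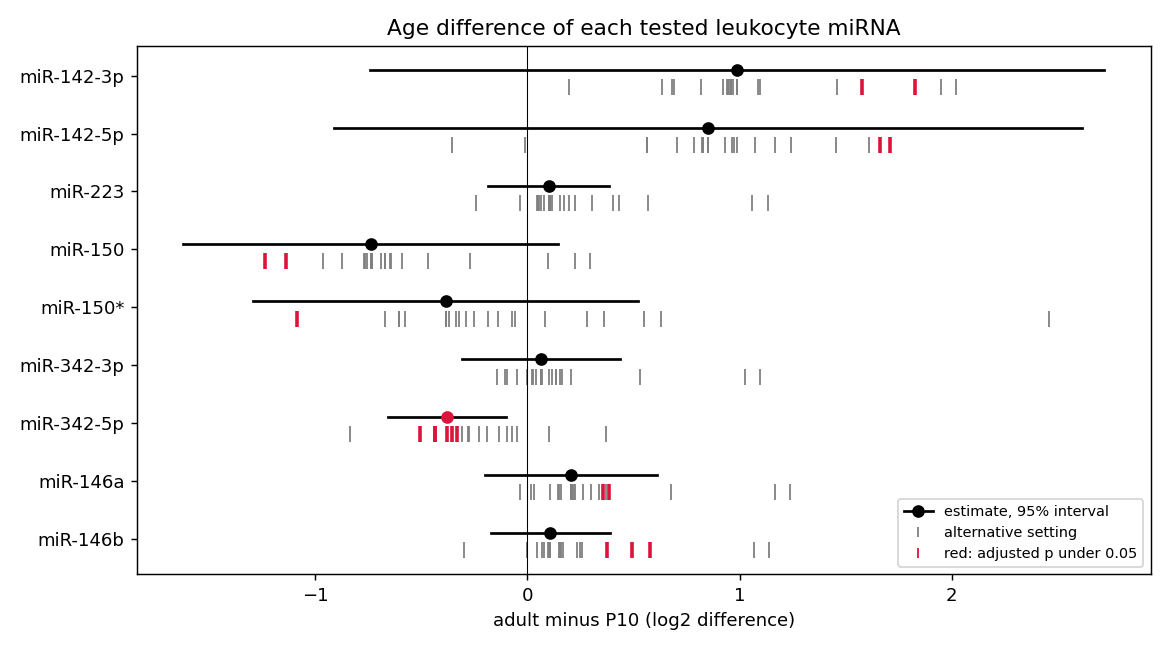
Adult minus P10 log2 difference of each tested leukocyte miRNA, with its 95% interval (circle and line) and its value under each alternative setting (ticks), in red where the limma adjusted p was under 0.05. The intervals of miR-142-3p and miR-142-5p are the widest, and miR-342-5p is the single red circle.

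The other 20 listed miRNAs with known roles in blood and immune cells gave 14 that could be tested. Of these 4 rose and 4 fell in adult, beside 27.3% higher and 20.2% lower over all tested miRNAs. The median difference of the 14 was -0.15. The 4 that fell were members of the miR-181 family, which acts in lymphocyte development, with the largest difference for miR-181b (-2.85 ± 0.50 SE, limma adjusted p = 0.00224, n = 4 per age). The 4 that rose were miR-132, miR-24, let-7e and miR-27a. Of these 8 calls 5 were kept after quantile normalization, where miR-24, let-7e and miR-27a lost theirs, and 2 after cyclic loess on all probes, miR-132 and miR-181c. miR-21, which many immune and other cells make, was at 2.05, 2.54, 2.47 and 1.69 on adult replicates 1 to 4 and at 2.64, 2.29, 2.96 and 2.28 on P10 replicates 1 to 4, and did not pass. miR-511, known from macrophages, and miR-147, known from stimulated macrophages in mouse, were not well above background on any array.

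The patterns most like those of the other members were taken over the same 8 arrays, as descriptions with no test. miR-142-3p was followed by miR-382* (Pearson correlation 0.948) and miR-133b (0.918), both at or near the floor on P10 replicates 1 to 3, and the same pair was nearest to miR-223 (0.743 and 0.816). miR-146a was followed by miR-338 (0.905) and miR-145 (0.873), miR-146b by miR-200a (0.866) and let-7a (0.865), and miR-342-3p by miR-421* (0.916) and miR-409-5p (0.868). Among the members themselves, miR-142-3p had a correlation of 0.742 with miR-223, 0.640 with miR-342-3p and -0.21 with miR-150. All these points share the arrays' scaling and depth of signal.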

How the data were processed

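Per the labels, islet total RNA was labelled with cyanine 3 for Agilent miRNA arrays. Per the file headers, Agilent Feature Extraction 10.7.3.1 made the deposited intensity values, in which background had been subtracted. The authors' value table holds deposited log2 values, 1 per miRNA and array. Its making is not given in the sources used.

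Features flagged as outliers were left out (2.34% to 3.65% per array) and the rest averaged per probe. Signals were scaled to the 75th percentile of the 278 probes that exceeded background clearly on all 8 arrays and raised to a common floor, set at the arrays' median 1st percentile over probes above background, before log2 was taken. Each miRNA was represented by its brightest probe. The 238 miRNAs well above background on at least 4 arrays were tested with limma 3.58.1 in R 4.3.3 (adult minus P10) without a block and with Benjamini-Hochberg adjustment over all of them. The number of arrays limits the precision. The limma step was tested on simulated data.

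The members and lists were chosen with earlier results of these data known. All members are named. Outside them the text names marker lists, the 2 miRNAs most correlated with each member measured on all arrays, and called miRNAs of a list of blood and immune miRNAs. Others were named after their values were seen: miR-133b, miR-21, miR-511 and miR-147. Normexp used median signals, because no column of mean spot signals is in the files. Slide and scan were single, so only slide row could serve as a block.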

Additional observations from a re-analysis of the deposited data

Results flagged for a closer look

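Dixon's criterion at the 95% level for 4 samples was applied to the log2 signals of the 9 tested leukocyte miRNAs in each age, 18 groups in all, of which chance would flag about 1 in 20. P10 replicate 4 was beyond it for both arms of miR-142. For miR-142-3p it lay at 1.36, with the next P10 array at -1.67, and this gap was 0.845 of the group's range. For miR-142-5p it lay at -2.07 with the other 3 P10 arrays at the floor of -5.51, so that the gap was the whole range. The arms come from 1 hairpin and are not independent. No adult array was beyond the criterion for any of the 9. It could not flag miR-342-5p in adult, where all 4 arrays were at the floor. Before the floor adult replicate 2 lay at -6.16 for miR-342-5p and the other adult arrays at -5.59.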

How the results depend on the processing

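Leukocyte miRNAs called numbered 1 of 9 here, 5 with array weights and 2 with P10 replicates 3 and 4 as the only P10 arrays. It stayed 1 with the percentile over all probes, quantile normalization and cyclic loess on bright probes, but there the call was miR-146b, higher in adult. None (0) was called by limma without scaling, with spike-in scaling, cyclic loess over all probes, no filter, a replicate block or slide row as a block (1 of 9 at an unadjusted p under 0.05 in each), with normexp (2), or with total gene signal, the mean of all probes, the floor at the 5th percentile, the authors' value table or miRNAs above background on all 8 arrays (0 in each; 6 members left in the last). Leaving out 1 array gave 0 to 4, with 4 without P10 replicate 4 (miR-142-3p, miR-142-5p and miR-146a higher, miR-342-5p lower) and 0 in each fit without 1 adult array. miR-342-5p, called lower here, turned to 0.10 and 0.37 (not called) after cyclic loess on all and on bright probes. The cause was not tested. Without P10 replicate 2 miR-342-5p lost its call (-0.31) and miR-150 gained one (-1.14).

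Calls over all miRNAs, 113 here, were 75 without scaling, 62 with spike-in scaling, 34 with cyclic loess over all probes and 179 with array weights, and 84 to 138 without 1 array. The difference of miR-142-3p was above 0 in 26 of 26 alternatives (0.19 to 2.02) and that of miR-223 in 24 of 26 (-0.24 to 1.13). miR-142-5p turned to -0.36 with normexp. Replicate numbers in the labels showed no clear pairing of the arrays, though these values cannot exclude one. Correlations of deviations from the age means were 0.18, -0.09, 0.48 and -0.23 for numbers 1 to 4. Closest to their own number were 2 of 4 adult arrays and 1 of 4 P10 arrays. The replicate block gave 95 calls over all miRNAs. Signal over background limits miR-142-5p, miR-150* and miR-342-5p most.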
